A study of Bos taurus with 81 samples.

Results

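Active chromatin of the bovine morula was followed into the 2 lineages of the blastocyst, the inner cell mass (ICM) and the trophectoderm (TE), in 12 of the 81 deposited peak lists of the series. These were the H3K4me3 and H3K27ac lists of morula, ICM and TE, with 2 libraries per mark and group. The 29 autosomes were divided into 2488105 bins of 1 kb, and a bin was called marked in a library where at least 50% of its bases lay under a peak. The members are the bins marked in both morula libraries, 41005 for H3K4me3 and 87957 for H3K27ac. Each was sorted by its state in the 2 ICM and 2 TE libraries, and bins marked in a lineage but in no morula library were collected as new.

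All embryos were produced by in vitro fertilization and none of the 3 groups had received an inhibitor. Morulae were collected at 122 h and whole blastocysts at 172 h after insemination, and the labels give no hour for the blastocysts from which ICM and TE were isolated. Libraries were made by CUT&Tag, in which an antibody guides a transposase that tags the DNA around a histone mark. Each used 1000 to 1500 blastomeres and therefore pooled several embryos. ICM was obtained by immunosurgery, in which antiserum and complement lyse the outer cells of the blastocyst. TE was cut off the blastocyst with a micro scalpel. The labels do not say that replicates came from separate embryo collections, so the p-values measure only the spread between these libraries. A mark present in fewer cells and a weaker mark in every cell cannot be told apart in such pools. The lineage labels were not checked against marker genes, because an annotation of the genome build of the lists was not used here.

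H3K4me3 is a histone methylation found at the starts of active and poised genes. H3K27ac is an acetylation of active promoters and of enhancers, the distal elements that differ most between cell types. In the morula the blastomeres are still largely unspecified. Its outer cells go on to form TE, the epithelium that gives rise to the fetal part of the placenta, and its inner cells form ICM, the source of the fetus and the yolk sac. H3K27me3, laid down by Polycomb repressive complex 2, and H3K9me3, found in heterochromatin, are used below as marks of repressed chromatin.

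The lists of one mark did not have the same length. H3K4me3 peaks covered 45.8 Mb ± 3.35 (SD, n = 2) of the autosomes in morula, 38.1 Mb ± 0.606 in ICM and 45.8 Mb ± 1.33 in TE. H3K27ac peaks covered 113.9 Mb ± 1.803 in morula, 94.7 Mb ± 4.88 in ICM and 58.9 Mb ± 1.99 in TE. Sequencing depth was unknown. The score of the weakest H3K27ac peaks (first percentile per 200 bp) was 12 and 8.47 in the 2 morula libraries, 8.38 and 8.27 in ICM, and 7.11 and 7.14 in TE. The part of depth in the results was not tested. A shorter list marks fewer bins, so fates, new bins, shares per lineage library, open chromatin differences and the split by the other active mark were also computed on trimmed lists. There all 6 lists of a mark were cut, from the highest score down, to the shortest length. All other results use the lists as deposited, with their unequal lengths. That length was 37.7 Mb for H3K4me3 and 57.5 Mb for H3K27ac.

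The first question was how much of the morula's marking was found again in each lineage. Most H3K4me3 bins of the morula remained marked in both lineages, whereas fewer than 1 in 3 of the H3K27ac bins did. Of the 41005 H3K4me3 bins, 27108 (66.1%) were marked in all 4 lineage libraries. Only 1008 (2.46%) were kept in ICM alone, 1579 (3.85%) in TE alone, and 4938 (12.04%) were marked in neither. In the remaining 6372 (15.5%) the replicates of a lineage disagreed. Of the 87957 H3K27ac bins, 24351 (27.7%) were kept in both lineages and 28036 (31.9%) were marked in neither. ICM alone kept 17019 (19.3%), TE alone kept 2087 (2.37%), and the replicates disagreed in 16464 (18.7%). These shares follow from the sorting itself and carry no test.

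**Figure D1:**
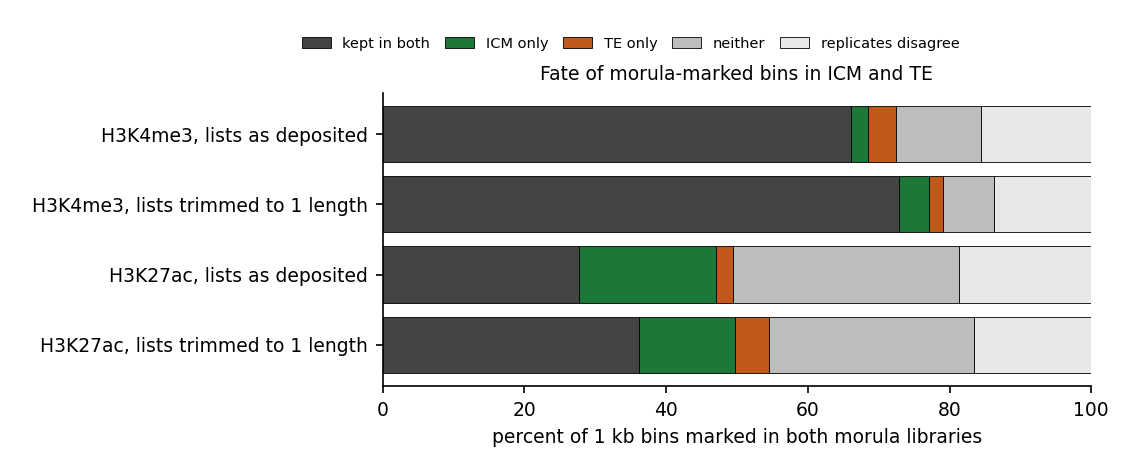
Share of morula-marked bins (percent, horizontal axis) by fate in ICM and TE, for each mark, with the lists as deposited and with all lists of a mark trimmed to one length. Kept in both lineages is the largest class for H3K4me3 (66.1%, 72.9% trimmed), and the H3K27ac bins kept in ICM alone shrink from 19.3% to 13.6% on trimming.

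Measured against all autosomal bins, marked in both morula libraries and in no library of a lineage were 0.313% for H3K4me3 and ICM, 0.279% for H3K4me3 and TE, 1.27% for H3K27ac and ICM, and 2.09% for H3K27ac and TE. Those marked in both ICM and no TE library, whatever their state in the morula, were 0.091% for H3K4me3 and 1.53% for H3K27ac. The reverse, TE without ICM, held for 0.287% and 0.447%. The lineage bias of the morula bins thus had the same direction as that of all bins of the mark, and nothing is read from it about the morula bins alone.

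With the lists trimmed to one length, 72.9% of 34002 H3K4me3 bins and 36.2% of 45660 H3K27ac bins were kept in both lineages. The H3K27ac bins kept in ICM alone were still more than those kept in TE alone, at 13.6% against 4.79%. For H3K4me3 the order turned around, with 4.20% in ICM alone and 1.93% in TE alone. These small H3K4me3 classes also changed when a library was left out, which loosens the rule for its group to a single library. ICM alone had 3.71% without ICM replicate 1, 3.98% without TE replicate 1 and 3.93% without TE replicate 2. Leaving out ICM replicate 1 gave 6.11% in TE alone, and leaving out ICM replicate 2 gave 6.63%. The H3K4me3 share marked in neither was 18.2% without morula replicate 1.

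Counted per library, ICM replicates 1 and 2 marked 75.9% and 76.6% of the morula H3K4me3 bins, and TE replicates 79.5% and 78.6%. The 2 groups did not overlap, but the gap between the means was small: ICM was lower by 2.74 percentage points, a difference of -2.74 (76.3% ± 0.493 against 79.0% ± 0.643, SD, n = 2 each). An exact permutation test gave p = 0.333, the smallest that 2 libraries against 2 allow (adjusted p = 0.333). The sign changed on trimming, to ICM 2.94 points above TE. Of all autosomal bins, with lists as deposited, the ICM libraries marked 1.56% and 1.59% and the TE libraries 1.93% and 1.85%. The lineages thus had the same order over all bins, and nothing is read from the gap about the morula bins alone.

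For H3K27ac the ICM libraries marked 59.9% and 57.8% of the morula bins and the TE libraries 36.1% and 36.5%. ICM thus lay 22.5 percentage points above TE (58.8% ± 1.503 against 36.3% ± 0.314, SD, n = 2 each). The exact permutation test again gave its smallest p of 0.333 (adjusted p = 0.333). On trimmed lists the ICM libraries marked 59.5% and 59.8% and the TE libraries 48.3% and 47.5%. The gap was then 11.8 points in the same direction. Of all autosomal bins, with lists as deposited, the ICM libraries marked 4.11% and 3.83% and the TE libraries 2.28% and 2.40%. Here too the order was that of all bins, so the gap as deposited is not read as particular to morula bins.

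The 2 marks were then compared over the 4 lineage libraries of each. On average 77.7% ± 1.65 (SD, n = 4) of H3K4me3 bins and 47.6% ± 13.0 of H3K27ac bins were marked, a difference of 30.1 percentage points with no overlap between the marks. These SDs pool ICM and TE libraries. For H3K27ac the SD was 1.503 within ICM and 0.314 within TE, so the 13.0 holds mainly the gap between the lineages. The exact two-sided permutation test gave p = 0.0286, the smallest of its 70 arrangements, which did not take account of lineage. After Benjamini-Hochberg adjustment over the 8 permutation tests made, it did not pass 0.05 (adjusted p = 0.133). The ICM minus TE gap was 25.3 points larger for H3K27ac than for H3K4me3. Permuting the lineage labels within each mark gave p = 0.0556, the smallest of 36 arrangements (exact, adjusted p = 0.133). On trimmed lists that difference of gaps was 8.83 points, with an exact permutation p of 0.333.

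The other morula library gives a yardstick for variation between lists of the same group. Lists were as deposited, and a shorter list recovers fewer bins. Lower recovery in a lineage is therefore not read as loss alone. Of the 44676 H3K4me3 bins of morula replicate 1, 91.8% were marked in morula replicate 2. The ICM libraries marked 71.2% and 72.0% of them and the TE libraries 75.4% and 74.4%. Of the 49552 bins of replicate 2, 82.8% were marked in replicate 1, 67.8% and 68.5% in ICM, and 71.9% and 70.9% in TE. Every lineage library therefore recovered less than the morula replicate did, for either starting library.

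H3K27ac had the same order of groups with wider gaps, except that ICM here lay above TE. Of the 112863 H3K27ac bins of morula replicate 1, 77.9% were marked in morula replicate 2, 55.1% and 52.8% in the ICM libraries, and 32.3% and 32.9% in the TE libraries. For the 118003 bins of replicate 2 the shares were 74.5% in replicate 1, 50.4% and 48.4% in ICM, and 29.1% and 29.6% in TE. The ICM lists themselves marked only 102251 and 95269 bins and the TE lists 56719 and 59835. These shares were not computed on trimmed lists, so the part of list length in the gaps was not tested.

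**Figure D2:**
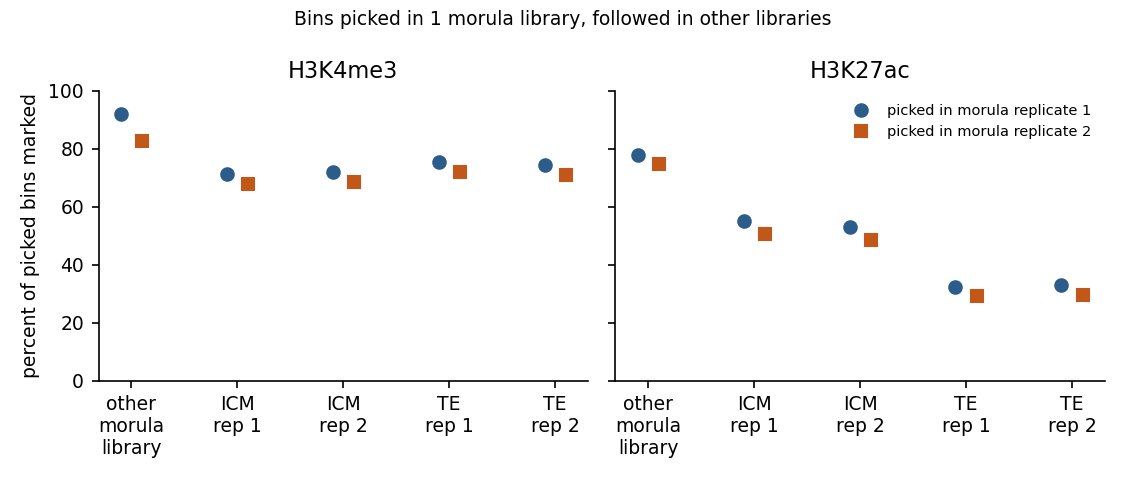
Percent of the bins marked in 1 morula library (vertical axis) that were also marked in other libraries, for H3K4me3 and H3K27ac. These are the other morula library and each ICM and TE library. Circles stand for bins of morula replicate 1 and squares for bins of replicate 2. The other morula library stands highest in both panels (82.8% and 91.8% for H3K4me3, 74.5% and 77.9% for H3K27ac), and TE is lowest for H3K27ac.

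Read backwards, from the lineage to the morula, the difference between ICM and TE in H3K27ac was not seen with lists as deposited. Of the H3K27ac bins of single ICM libraries, 58.2% to 62.6% were marked in single morula libraries, and of those of TE libraries 58.4% to 64.3%. The lineage replicate recovered 78.2% to 83.9%. For H3K4me3, 81.6% to 86.8% of ICM bins and 70.3% to 76.4% of TE bins were marked in a morula library, beside 85.3% to 88.9% in the lineage replicate. The ICM and TE ranges overlapped for H3K27ac and did not for H3K4me3. These ranges are over pairs of libraries that share members, so they carry no test. They were not computed on trimmed lists. There, of H3K27ac bins marked in both libraries of a lineage, 33.2% in ICM and 44.7% in TE were marked in no morula library.

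The second question was how much of each lineage was new. TE held more new H3K4me3 than ICM, at 7013 of 40903 bins (17.1%) against 2453 of 34039 (7.21%). As shares of all autosomal bins these were 0.282% and 0.0986%. The ICM share rose when a morula or ICM library was left out. It was 12.1% without ICM replicate 1, 11.5% without ICM replicate 2, 8.57% without morula replicate 1 and 12.4% without morula replicate 2. The TE share also rose, to 21.4% without TE replicate 1 and 23.4% without TE replicate 2. Leaving out a library loosens the rule for its group to a single library. New in TE and in no ICM library were 4631 bins, new in ICM and in no TE library 842, and new in both lineages 1221. With lists of one length 14.9% of TE bins and 10.7% of ICM bins were new, with 2729, 1659 and 1402 bins in the 3 classes. TE therefore had more new H3K4me3 bins under both counts, by a smaller margin when trimmed.

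For H3K27ac, new bins made up a similar part of either lineage. They were 20416 of 79935 ICM bins (25.5%) and 13220 of 47120 TE bins (28.1%), or 0.821% and 0.531% of all autosomal bins. New in ICM alone were 14043 bins, in TE alone 7627 and in both 3834. This order depended on list length. With lists trimmed to one length 33.2% of ICM and 44.7% of TE bins were new, and TE alone had 13218 new bins against 8318 in ICM alone and 5615 in both.

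Many lost and new bins lay beside marked sequence. Of the H3K4me3 bins marked in neither lineage, 2628 of 4938 (53.2%) had no covered base in the bin or its neighbours in any lineage library. For H3K27ac this held for 16773 of 28036 (59.8%). Bins new in TE alone had no morula base in reach in 56.3% of cases for H3K4me3 and 57.7% for H3K27ac. For bins new in ICM alone the shares were lower, 34.9% and 32.4%. New TE bins were thus more often separate from morula peaks than new ICM bins in either mark, as a count without a test.

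Morula peaks of higher score were found again in the lineages more often. Each morula list was split into 4 groups of equal size by score, and a peak was counted as found again where at least 50% of it was covered. In the highest-scoring group of H3K4me3 peaks, 97.1% to 98.5% were found in each of the 4 lineage libraries, and in the lowest-scoring group 20.8% to 33.8%. In the highest-scoring group of H3K27ac peaks, 64.8% to 68.6% were found in ICM and 42.2% to 43.4% in TE. In the lowest-scoring group these shares were 23.8% to 29.7% and 13.1% to 16.0%. The highest-scoring H3K27ac peaks were found in TE less often than in ICM, with lists as deposited, whose length differs between the lineages. The score rises with peak width, so strength and width are not separated here. The groups were taken from single morula lists, and their recovery in the other morula list was not computed. Low recovery can therefore include peaks that did not recur within the morula, and it is not read as loss from the lineages.

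**Figure D3:**
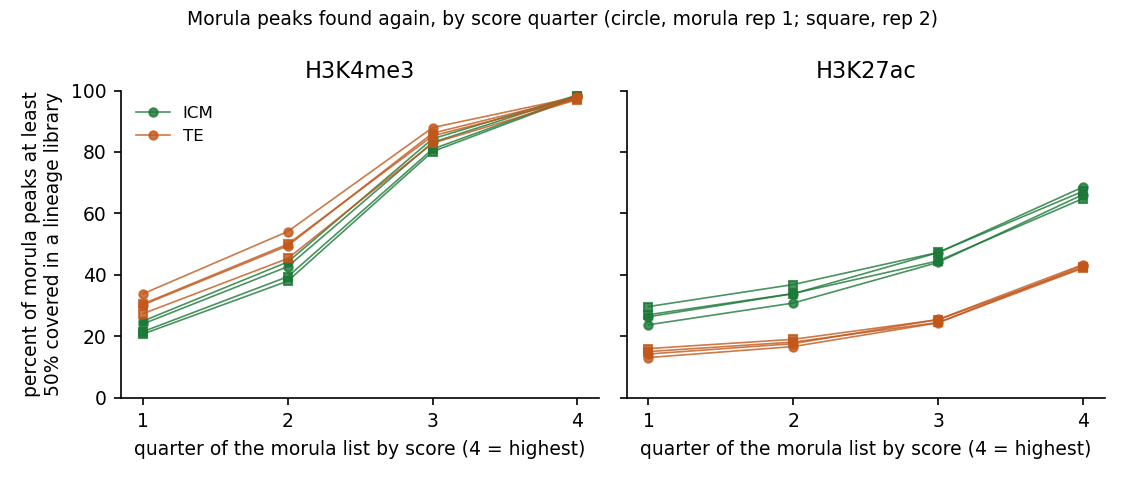
Percent of morula peaks covered by at least 50% in each lineage library (vertical axis), by score group of the morula list (horizontal axis, 4 = highest), with circles for morula replicate 1 and squares for replicate 2. H3K4me3 rises to 97.1% to 98.5% in ICM and TE alike, whereas in the highest H3K27ac group ICM reaches 64.8% to 68.6% and TE 42.2% to 43.4%.

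Position within the marked stretch also went with fate. H3K4me3 bins standing alone were kept in both lineages in 38.4% of cases and those in stretches of 3 to 4 bins in 75.3%, and the share was 71.3% in stretches of at least 10. Inside stretches of at least 3 bins 84.3% were kept, at their edges 64.6%. For H3K27ac, bins standing alone were kept in 17.9% and bins in stretches of at least 10 in 46.3%, with 38.8% inside and 26.9% at the edges of stretches. Bins fully covered in both morula libraries were kept in 88.7% for H3K4me3 and 48.5% for H3K27ac, against 47.5% and 21.4% of the partly covered.

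Whether a morula H3K27ac bin also carried H3K4me3, as active promoters do, gave the widest gap in kept shares among the bin properties described here for that mark. Of the 22866 H3K27ac bins with H3K4me3 in both morula libraries, 60.5% were kept in both lineages and 6.52% were marked in neither. The ICM libraries marked 90.5% and 88.6% of these bins and the TE libraries 67.3% and 68.6%. Of the 59666 bins with no H3K4me3 in either morula library, only 14.6% were kept in both and 42.9% were in neither. Here ICM libraries marked 46.8% and 44.7% and TE libraries 23.3% and 23.6%. TE was below ICM in both kinds of bins. The reverse split was weak: H3K4me3 bins with H3K27ac were kept in 68.5% of cases and the 13226 without it in 59.97%. With 5 kb bins this gap was gone, at 61.48% and 61.46%, and with marking in at least 1 library the shares were 64.3% and 62.1%. It stayed with a stricter score (71.5% and 60.5%), any covered base (69.0% and 59.3%) and trimmed lists (75.7% and 69.0%). On trimmed lists, H3K27ac bins with H3K4me3 were kept in 69.3% of cases and those without it in 20.1%.

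Following both marks together on the 22866 bins, 11496 (50.3%) kept both marks in both lineages. On a further 1726 bins H3K4me3 stayed in both lineages while H3K27ac stayed in ICM alone, and on 44 it stayed in TE alone. Thus a bin could lose H3K27ac in TE and keep its H3K4me3 there. Over all 22866 bins, whatever the fate of H3K4me3, H3K27ac was kept in both lineages in 13828 (60.5%). It was kept in ICM alone in 3690 (16.1%), in TE alone in 178 (0.778%) and in neither in 1492 (6.52%). The order of 1726 and 44 is therefore that of all these bins, with lists as deposited. Where H3K4me3 stayed in ICM alone (601 bins), H3K27ac was also kept in ICM alone in 352 and in TE alone in 0. Because H3K27ac kept in TE alone was rare over all these bins, the 0 is not read as a result. Where H3K4me3 stayed in TE alone (754 bins), H3K27ac was kept in both lineages in 418 and in TE alone in 60. Of 3072 bins that lost H3K4me3 in both lineages, 589 kept H3K27ac in both, 884 in ICM alone and 886 in neither.

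Some morula bins also carried a repressive mark. H3K27me3 lay on 12.1% and 11.9% of the H3K4me3 bins in the 2 morula libraries, against 6.55% and 6.00% of all autosomal bins, and on 2.19% and 1.94% of the H3K27ac bins. The 4388 H3K4me3 bins that also carried H3K27me3 in both morula libraries were kept in both lineages in 50.1% of cases. ICM libraries marked 61.5% and 63.7% of them and TE libraries 73.9% and 68.3%. The 1103 H3K4me3 bins with H3K9me3 were kept in 30.4%, and 33.8% of them were in neither lineage. Of the H3K27ac bins, 1366 carried H3K27me3 in both morula libraries and 19.99% of these were kept, and 2725 carried H3K9me3, of which 14.9% were kept. The kept share over all morula bins was 66.1% for H3K4me3 and 27.7% for H3K27ac.

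Bins were also separated by whether the mark was present at the 8-cell stage, collected at 56 h without inhibitor. H3K4me3 bins already marked in both 8-cell libraries (27594) were kept in 77.8% of cases, and those marked in neither 8-cell library (8484) in 34.3%. For H3K27ac the shares were 43.8% of 19719 bins and 21.98% of 59058. Seen from the classes, 80.9% and 87.6% of the H3K4me3 bins kept in both lineages were marked in the 2 8-cell libraries, beside 38.7% and 48.4% of those in neither and 2.76% and 4.72% of all autosomal bins. H3K27ac was marked at the 8-cell stage in 41.9% and 40.3% of the bins kept in both, 25.8% and 24.3% of those kept in ICM alone, 14.7% and 14.6% of those kept in TE alone, and 20.7% and 20.1% of those in neither. Bins new in TE alone, at 5.40% and 5.00%, were near the 3.88% and 3.84% of all autosomal bins. Bins kept in TE alone thus had the lowest 8-cell H3K27ac among these 4 classes of morula bins in both libraries, a description without a test. At the 2-cell stage ICM alone, at 8.73% and 10.98%, was not above TE alone, at 9.39% and 11.4%.

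**Figure D4:**
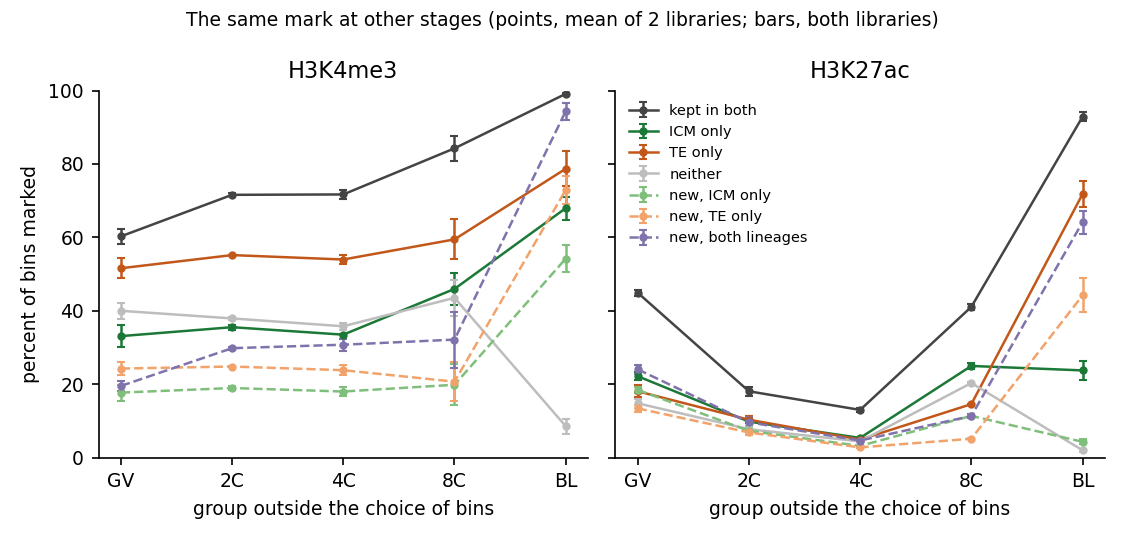
Percent of the bins of each class carrying the same mark (vertical axis) in groups that did not choose the bins, for H3K4me3 and H3K27ac; points are means of 2 libraries and bars span both. Bins kept in both lineages stand highest at the 8-cell stage for either mark (80.9% and 87.6% for H3K4me3, 41.9% and 40.3% for H3K27ac).

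Whole blastocysts, which contain both lineages, were not used in choosing the bins. Their libraries marked 98.8% and 99.4% of the H3K4me3 bins kept in both lineages and 91.6% and 94.0% of such H3K27ac bins. Bins kept in neither were marked in the blastocyst in 6.58% and 10.7% for H3K4me3, above the 1.85% and 2.02% of all bins. For H3K27ac they were marked in 1.62% and 2.53%, close to the 1.91% and 2.15% of all bins. The restricted H3K27ac classes were unequal. Blastocyst libraries marked 21.2% and 26.4% of the bins kept in ICM alone but 68.3% and 75.3% of those kept in TE alone. For new H3K27ac bins the shares were 3.67% and 5.04% in ICM alone, and 39.6% and 48.8% in TE alone. H3K4me3 had smaller gaps of the same direction, 64.9% and 71.0% for ICM alone and 74.0% and 83.4% for TE alone. The blastocyst H3K27ac lists covered 52.1 Mb ± 4.28 (SD, n = 2), the shortest of the groups compared here, and the share of ICM cells in a blastocyst was not measured.

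Open chromatin gave a readout from other libraries. ATAC-seq, in which the transposase tags accessible DNA with no antibody, had been done on ICM and TE with 3 libraries each. Of the H3K27ac bins kept in ICM alone, 47.6%, 59.2% and 49.0% were open in the ICM libraries and 27.1%, 32.1% and 25.7% in the TE libraries. Of those kept in TE alone, 13.4%, 21.9% and 13.5% were open in ICM and 58.3%, 66.4% and 58.9% in TE. Each lineage was therefore more open at the bins whose H3K27ac it had kept, with no overlap between the lineages. Among all bins 2.89% to 3.90% were open in ICM and 3.07% to 3.99% in TE. The bins kept in both were open in 73.2% to 80.1% in ICM and 78.7% to 83.6% in TE. Bins kept in neither were open in 9.61% to 15.9% and 9.07% to 12.3%, which is above the level of all bins in every library.

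The share open among bins kept in ICM alone minus that among bins kept in TE alone was 35.6 points ± 1.55 (SD, n = 3) in ICM libraries and -32.9 ± 1.59 in TE libraries. The lineages differed by 68.5 points (exact two-sided permutation test, p = 0.1, the smallest that 3 against 3 allow, adjusted p = 0.133). For H3K27ac bins new in 1 lineage alone the difference was 57.0 points (25.7 ± 3.16 against -31.3 ± 1.76, SD, n = 3 each), with the same exact p of 0.1 and adjusted p of 0.133. With 5 kb bins it was 30.1 points (exact permutation p = 0.1). New in ICM alone were open in 30.2%, 39.0% and 29.9% in ICM and in 18.1%, 22.5% and 16.6% in TE. New in TE alone were open in 6.49%, 9.65% and 5.94% in ICM and in 48.1%, 55.8% and 47.4% in TE.

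H3K4me3 classes differed less in ICM. Bins kept in ICM alone were open in 58.7%, 70.3% and 60.5% in ICM, and those kept in TE alone in 55.1%, 64.2% and 53.9%, so both were largely open there. In TE the shares were 36.9%, 43.7% and 36.1% for bins kept in ICM alone and 67.2%, 74.3% and 65.4% for those kept in TE alone. The lineages differed by 35.5 points (5.46 ± 1.60 against -30.1 ± 0.723, SD, n = 3 each, exact permutation p = 0.1, adjusted p = 0.133). For new H3K4me3 bins the difference was 50.7 points (11.2 ± 1.01 against -39.4 ± 0.880, with the same exact p of 0.1 and adjusted p of 0.133). Bins that had lost H3K4me3 in both lineages were still open in 42.7%, 53.6% and 42.1% in ICM and in 34.6%, 41.3% and 32.6% in TE.

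**Figure D5:**
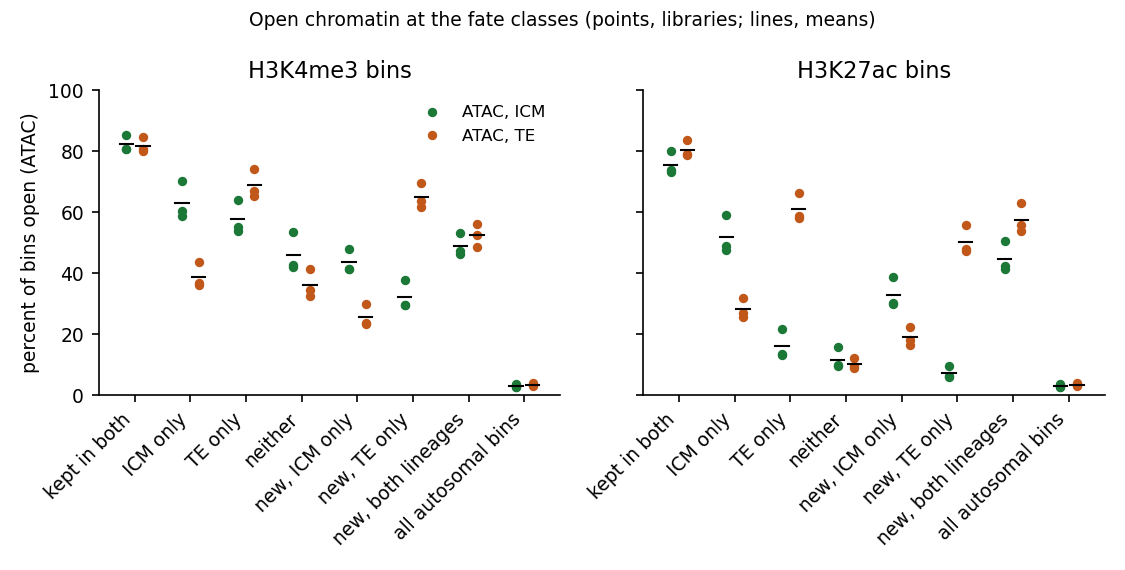
Percent of bins open by ATAC-seq (vertical axis) in 3 ICM and 3 TE libraries for each class of H3K4me3 and H3K27ac bins; points are libraries and lines are means. At H3K27ac bins kept in ICM alone the ICM points (47.6% to 59.2%) lie above the TE points (25.7% to 32.1%), and at bins kept in TE alone the order is reversed (13.4% to 21.9% against 58.3% to 66.4%).

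H3K27me3, the Polycomb mark, was also read at the restricted H3K27ac bins, from lists with a coarser grid of 200 bp. Bins kept in TE alone carried it in 3.83% and 3.59% in the morula libraries, 9.25% and 10.3% in ICM, and 0.623% and 0.719% in TE. Bins kept in ICM alone carried it in 1.59% and 1.32% in the morula, 1.36% and 1.22% in ICM, and 4.88% and 4.75% in TE. In each case the lineage without the acetylation had more H3K27me3 than the lineage with it, and in both lineage libraries. These levels stayed below or near those of all autosomal bins, 9.88% and 9.89% in ICM and 10.8% and 11.2% in TE, so most bins that lost H3K27ac in a lineage had no H3K27me3 there. Bins new in TE alone carried H3K27me3 in 10.7% and 9.83% in the morula, where all bins had 6.55% and 6.00%, and in 1.495% and 1.69% in TE. At H3K4me3 bins H3K27me3 was more frequent: 30.1% and 28.8% in ICM and 26.1% and 26.4% in TE at those kept in TE alone. At those kept in ICM alone it was 14.2% and 13.9% in ICM and 24.8% and 24.3% in TE.

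The longest stretches of each class were taken as examples, with coordinates on ARS-UCD1.2. The longest H3K27ac stretch kept in both lineages was chr19:39452001-39480000, 28 kb long and covered by 97.5% to 100% in all 6 libraries. The longest H3K4me3 stretch kept in both, chr24:34186001-34200000, was 14 kb long. It was covered by H3K4me3 in 93.2% and 100% in the morula, 96.1% and 96.8% in ICM, and 94.6% and 100% in TE. H3K27me3 covered 0% of both stretches in every morula, ICM and TE library. This did not hold for other long H3K4me3 stretches kept in both. At chr25:38879001-38891000 H3K27me3 covered 31.7% and 23.3% in the morula and 0% in ICM and TE. At chr25:2620001-2632000 it covered 83.3% and 95.0% in the morula, 48.3% and 11.7% in ICM, and 0% and 3.33% in TE.

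The longest H3K27ac stretch kept in ICM alone, chr6:69714001-69729000 (15 kb), was covered by H3K27ac in 94.0% and 93.7% in the morula, 100% and 99.3% in ICM, and 2.33% and 0% in TE. In TE, H3K27me3 covered 97.3% and 84.0% of it, where morula and ICM libraries had 0%. The same locus held chr6:69720001-69724000, the second longest H3K4me3 stretch kept in ICM alone, with 100% coverage in both morula and both ICM libraries and 0% in TE. Both active marks were thus absent from TE over these 4 kb, where H3K27me3 covered 100% in both TE libraries. ATAC peaks covered the 4 kb fully in the 3 ICM libraries and by 67.5%, 56.2% and 43.8% in TE. The longest H3K4me3 stretch kept in ICM alone was chr7:29017001-29023000 (6 kb), with 98.3% and 100% in the morula, 96.7% and 95.0% in ICM and 0% in both TE libraries. There H3K27me3 covered 0% in all libraries of the 3 groups, unlike at the chromosome 6 locus.

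Stretches kept in TE alone were shorter. The longest for H3K27ac was chr22:10824001-10830000 (6 kb), covered in 77.5% and 80.0% in the morula, 85.0% and 83.3% in TE and 18.3% and 7.5% in ICM. ATAC peaks covered 48.3%, 45.8% and 41.7% of it in TE and 6.67%, 12.5% and 5.83% in ICM. The longest for H3K4me3 was chr4:113599001-113603000 (4 kb), with 90.0% and 95.0% in the morula, 100% in both TE libraries, and 0% and 17.5% in ICM.

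Among stretches lost from both lineages, chr1:68495001-68508000 (13 kb) was covered by H3K27ac in 80.8% in both morula libraries and in 0% in all 4 lineage libraries. For H3K4me3 the longest was chr23:11017001-11024000 (7 kb), with 66.4% and 97.9% in the morula and 0% in the lineages. H3K27ac persisted there, at 57.9% and 80.7% in ICM and 87.9% and 86.4% in TE. The methylation was thus lost and the acetylation was not over the same 7 kb.

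New stretches were longest in TE. H3K27ac at chr19:49621001-49634000 (13 kb) was 0% in the morula and ICM libraries and 93.1% and 94.6% in TE, where ATAC peaks covered 67.3%, 78.5% and 66.9%. H3K4me3 at chr23:45610001-45618000 (8 kb) was 0% in morula and ICM and 93.1% and 98.8% in TE. This stretch was fully covered by H3K27me3 in both morula and both ICM libraries and by 0% in TE. Other long H3K4me3 stretches new in TE alone differed. At chr20:71608001-71616000 H3K27me3 covered 100% in both morula libraries, 85% and 100% in ICM, and 100% in both TE libraries. At chr22:59352001-59360000 it covered 35% and 100% in the morula and 0% in ICM and TE. Of all H3K4me3 bins new in TE alone, 14.8% and 14.1% carried H3K27me3 in the morula and 12.5% and 12.7% in ICM. The longest H3K27ac stretch new in ICM alone was chr9:41595001-41604000 (9 kb), with 6.11% and 0% in the morula, 90.6% and 92.8% in ICM and 0% in TE. The longest H3K27ac stretch new in both lineages, chr13:42836001-42843000 (7 kb), had 16.4% and 0% in the morula, 93.6% and 87.1% in ICM and 92.9% and 93.6% in TE.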

How the data were processed

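The authors deposited 1 peak list for each library. The submitters' processing notes name the ARS-UCD1.2 build, the caller SICER and the aligner BWA 0.7.9a. They also name SAMtools 1.9, Picard 2.26.10, Trim Galore 0.4.0 and, for adapters, cutadapt 1.8.3. The lists are named for another caller, so the caller was not settled, and its cutoff is not given in the sources used here. Each deposited peak has a position and a whole-number score, whose meaning the deposited lists do not give. The score was used to rank peaks within a list, in one alternative after division by peak width. The score per 200 bp of the weakest H3K27ac peaks was also set side by side between lists. Of the 81 lists, 57 were used and 24 were not used here. Sequencing depth was unknown, and its part in the number of weak peaks of a list was not tested.

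Peaks were placed in 1 kb bins with pandas 2.3.3 and NumPy 2.4.6 in Python 3.11.15, and figures were drawn with matplotlib 3.10.9. Sorting of bins was tested on simulated lists with known fates. Tests were exact two-sided permutation tests over libraries, with Benjamini-Hochberg adjustment over 8 tests. The named stretches are from the 3 longest runs of adjacent bins of each class. Alternatives were 5 kb bins, any covered base, at least 1 library, a stricter score, lists trimmed to one length, a replicate block and leaving out each library. Trimming by score per base was added after the data had been seen. Members and lists were chosen with earlier results of these data known. Gene names, lineage marker genes and base composition need the genome of this build and were not analysed here.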

Additional observations from a re-analysis of the deposited data

Results flagged for a closer look

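The ICM minus TE gap in the share of morula bins marked per library differed between the marks by 25.3 percentage points. It was 22.5 points for H3K27ac and -2.74 for H3K4me3. Every ICM library lay above every TE library for H3K27ac and below for H3K4me3, and the same held over all autosomal bins. The exact permutation test gave p = 0.0556 (adjusted p = 0.133), so the difference did not pass 0.05. On trimmed lists the H3K4me3 gap was 2.94 points, so that both marks then had ICM above TE, and the difference between the marks was 8.83 points (exact permutation p = 0.333).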

How the results depend on the processing

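Values below are for H3K4me3 first and H3K27ac second unless said otherwise, and shares are percentages of bins. With the lowest 25% of peaks by score left out, the 20 fates, new shares and differences kept their direction and moved by less than the replicate spread or, where tested, stayed on their side of the threshold. Of the 4 kept shares split by the other active mark, H3K4me3 bins with H3K27ac moved from 68.5 to 71.5.

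With bins of 5 kb, kept in both were 62.1 and 25.1, ICM alone 3.92 and 24.7, TE alone 2.85 for H3K27ac, new in ICM 12.3 and 35.3, new in TE 25.9 and 36.4, and the ATAC difference of new H3K27ac bins 30.1. The split of H3K4me3 bins by H3K27ac was then 61.48 against 61.46. With any covered base, H3K27ac values were 29.5 kept in both, 17.2 ICM alone, 19.4 new in ICM and 23.7 new in TE. With marking in at least 1 library, neither was 20.8 and 43.1, ICM alone 5.88 and 25.3, TE alone 8.97 and 4.07, new in ICM 15.3 and 35.8, and new in TE 26.5 and 34.98.

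With trimmed lists, kept in both were 72.9 and 36.2, ICM alone 4.20 and 13.6, TE alone 1.93 and 4.79, new in ICM 10.7 and 33.2. Neither was 7.26 for H3K4me3, new in TE 44.7 for H3K27ac, and the H3K4me3 ICM minus TE gap reversed to 2.94. Trimming by score per base, chosen after seeing the data, gave 72.97 and 36.1, 4.37 and 13.1, 1.805 and 4.74, 10.5 and 34.9, 7.10, 45.5 and 3.45 for the same values. Both trimmings use shorter lists by construction.

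With the replicate block, in which morula replicate n was followed in lineage replicate n, neither was 20.8 and 43.9, ICM alone 6.06 and 25.1, TE alone 9.38 and 4.29, new in ICM 15.9 and 39.6, new in TE 26.7 and 38.7, and H3K4me3 kept in both 63.8. The block asks for 1 library per group, so fewer bins count as disagreeing. Deviations of same-numbered libraries correlated at -0.0104 to 0.0212. This cannot tell whether such libraries came from the same embryo collection or batch, which the labels do not give. The block changed no call.

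Leaving out 1 library at a time gave kept in both 57.1 to 68.9 and 21.7 to 31.0, ICM alone 2.41 to 3.98 and 17.02 to 24.2, TE alone 4.11 to 6.63 and 2.21 to 3.42, neither 13.2 to 18.2 and 32.6 to 41.5, new in ICM 7.21 to 12.4 and 25.5 to 34.9, and new in TE 17.1 to 23.4 and 28.1 to 36.3. The ICM minus TE gap was -3.30 to -2.29 and 20.1 to 23.6, the gap between the marks' gaps 22.8 to 26.3, and the difference between the marks 22.2 to 38.3. The ATAC differences were 28.3 to 36.4 and 61.1 to 69.4 for restricted bins, and 44.2 to 51.3 and 49.5 to 57.99 for new bins. Why values moved was not tested beyond what is stated. With 2 libraries per group and unknown depth, small classes are the least certain.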

Other observations

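The fates of morula bins varied between chromosomes. H3K4me3 bins were kept in both lineages in 57.5% (chromosome 27) to 71.2% (chromosome 25) of cases, with a median of 65.0% over the 29 autosomes. H3K27ac bins were kept in both in 18.6% (chromosome 12) to 37.1% (chromosome 25), with a median of 26.7%. The share in neither lineage was highest on chromosome 27 for both marks, at 19.5% for H3K4me3 and 43.5% for H3K27ac. It was lowest on chromosome 25 for both, at 7.89% and 23.2%.

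Agreement between lists was measured on autosomes as the Jaccard index, the 1 kb bins marked in both lists over those marked in either. For H3K4me3 it was 0.770 between the morula replicates. The means of 4 library pairs were 0.617 between morula and ICM, 0.577 between morula and TE, and 0.631 between ICM and TE. For H3K27ac these values were 0.615, 0.386, 0.259 and 0.338. ICM lists were therefore nearer to morula lists than to TE lists in H3K27ac and not in H3K4me3, with list lengths as deposited.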
